A study of Mus musculus with 6 samples.

Results

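The death receptors and their proximal signaling genes were followed in mouse microvascular endothelial cells with and without overexpression of SOD3, the extracellular superoxide dismutase. The members were 10 genes, Fas, Tnfrsf1a, Tnfrsf1b, Tnfrsf10b, Tnfsf10, Casp8, Fadd, Cflar, Tradd and Ripk1, and every spot that was not a control and whose description or reference transcript names one of them was taken. This gave 10 genes of the 21654 that a probe names, on 13 of the 55681 probes and 23 spots. RNA came from 2 lines of 1G11 cells (strain given as C57BL/6NCrLBR), 1G11-mock, the control transfectant, and 1G11-SOD3, which overexpresses SOD3. Both lines had been kept for 6 h in cell-free medium conditioned by N202.1A murine mammary cancer cells, so no array shows 1G11 cells without tumor medium. Each line had 3 biological replicates, each hybridized to a single-color Agilent array. The sources used here do not say whether the lines are clones or pools. In bulk RNA such as this, fewer cells of a type and less RNA per cell cannot be told apart.

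Death receptors are members of the tumor necrosis factor (TNF) receptor family that carry a death domain in their cytoplasmic part. FAS and the TRAIL receptor, once bound by their ligands, gather the adaptor FADD and the initiator caspase-8 into the death-inducing signaling complex (DISC), where c-FLIP, the product of Cflar, competes with caspase-8. TNF receptor 1 gathers TRADD and RIPK1 instead, in a complex (complex I) that mainly feeds NF-κB and can turn into a death-inducing one. Endothelial cells carry these receptors and are usually protected from their death signal by NF-κB target genes.

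Fas was the only member that passed the thresholds of the test, being lower in 1G11-SOD3 cells by a fold change (Fc) of 2.85. Of the 13 member probes, 1 was called lower, 0 were called higher and 12 did not pass, a call being more than 2-fold with an adjusted p under 0.05 in limma over all probes. Over all probes, 2.93% were called in either direction and 1.06% were called lower. TNF receptors 1 and 2, the TRAIL receptor, TRAIL, the adaptors, caspase-8, c-FLIP and RIPK1 did not pass the test, which does not show that they were unchanged. The median log2 difference (1G11-SOD3 minus 1G11-mock) was -0.22 over the 13 member probes and -0.03 over all probes, and 10 of the member differences were negative. Without the probe of Tnfsf10, which was above background on no array, the median was -0.18 and 9 of 12 differences were negative. Cflar counts with 3 of the 13 probes and Tnfrsf1a with 2. After an adjustment for the place of the spots, described below, the median was -0.11 over the 13 member probes and 0.05 over all probes. Differences between one gene's change and another's were not tested.

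The sequence upstream of Fas is shown because Fas was the called member, that of Tnfaip3 because this NF-κB target was the called gene of complex I that was lower, and that of Tnfrsf1a because it is a receptor that did not pass. They are the 250 bases before an annotated start in RefSeq (GRCm38.p6), written in the direction of transcription, at chr19:34290409-34290658 (plus strand) for Fas, chr10:19015411-19015660 (minus strand) for Tnfaip3 and chr6:125349473-125349722 (plus strand) for Tnfrsf1a. Capitals mark each match, on either strand, to a loose form of the κB site bound by NF-κB, a run of 3 G, any 5 bases and 2 C.
Fas: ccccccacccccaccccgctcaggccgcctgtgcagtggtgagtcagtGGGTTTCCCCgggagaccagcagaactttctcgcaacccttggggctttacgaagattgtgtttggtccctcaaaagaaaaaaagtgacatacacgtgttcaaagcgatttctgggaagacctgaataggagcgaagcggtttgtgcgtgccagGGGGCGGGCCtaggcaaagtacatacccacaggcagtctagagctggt
Tnfaip3: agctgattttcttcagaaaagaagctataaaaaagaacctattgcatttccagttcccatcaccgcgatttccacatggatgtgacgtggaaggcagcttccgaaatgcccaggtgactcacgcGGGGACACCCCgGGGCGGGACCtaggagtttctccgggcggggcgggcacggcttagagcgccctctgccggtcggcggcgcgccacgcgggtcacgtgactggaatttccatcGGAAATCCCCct
Tnfrsf1a: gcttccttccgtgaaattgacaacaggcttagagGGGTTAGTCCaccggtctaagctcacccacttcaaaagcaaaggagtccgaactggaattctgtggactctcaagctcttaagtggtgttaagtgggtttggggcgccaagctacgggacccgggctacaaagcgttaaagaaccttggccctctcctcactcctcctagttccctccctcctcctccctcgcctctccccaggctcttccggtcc
The Fas sequence held the motif at 2 positions, GGGTTTCCCC from base -202, which matches on both strands, and GGGGCGGGCC from base -48. The table lists 2 starts for Tnfaip3, of which the upstream one, at the 5′ end of the annotated gene, is shown, and the other held the motif at 2 overlapping positions. The sequence shown held it at 4 positions, of which those at bases -126 and -125 overlap, and its match nearest the start was GGAAATCCCC from base -12. Tnfrsf1a held it at 1 position, GGGTTAGTCC from base -216. The motif occurred in 45.8% of the 32851 promoters in the RefSeq table within the same 250 bases, and in 4 of the 8 members that the table lists. These matches describe letters only, and binding was not measured. The sequences were picked by the calls, and whether the number of matches goes with a call was not tested.

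Where a probe was printed made a difference for some values. In a block of rows and columns at the center of the array, called the middle here, spots read dim on the 1G11-mock arrays. Of the 23 member spots, 2 lay in the middle, both of Tnfrsf1a, and 21 lay elsewhere. Values were therefore also computed after a smooth surface, estimated on each array from the surrounding spots, had been subtracted (position adjusted). All 1G11-mock arrays shared one slide row and all 1G11-SOD3 arrays the other, so cell line and slide row cannot be told apart. The scanner software set 34.2% to 43.8% of an array's spots well above background (controls left out), and no spot was saturated. Normalized values correlated across probes at 0.942 to 0.980 within a line and at 0.889 to 0.957 between lines. Sod3, whose single probe lay in the middle, read 13.61, 12.66 and 9.86 (log2 normalized intensity) on the 1G11-mock arrays and 16.37, 16.30 and 16.26 on the 1G11-SOD3 arrays, in the direction of its label (log2 Fc 4.27, SE 0.703, limma adjusted p = 0.00786, position adjusted 2.61). Without 1G11-SOD3 replicate 3 its adjusted p was 0.0511.

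By the brightest probe of each marker gene, the endothelial label held only in part at the RNA level. The authors' methods state that staining for VE-cadherin, which Cdh5 encodes, was used regularly to check that 1G11 cells are endothelial. Of 10 endothelial markers, 4 were well above background on all arrays (Kdr, Eng, Vwf and Esam) and 4 on none (Cdh5, Tek, Tie1 and Emcn). Vwf, which encodes von Willebrand factor, was called lower in 1G11-SOD3 cells (log2 Fc -1.65, limma adjusted p = 0.00342). The summed endothelial level (log2 of the sum of 10 normalized intensities) was 14.40 to 14.86 on 1G11-mock and 13.81 to 14.10 on 1G11-SOD3 arrays. It was set mostly by Eng (mean 13.81 against 12.76) and Kdr (12.89 against 12.39), and neither was called (limma adjusted p = 0.0835 and 0.295). Of the 10 marker differences, 4 were positive and 6 negative. Among the positive ones, those of Cdh5, Tie1 and Emcn came from probes above background on no array. The other, Esam (1.22), had its spot in the middle and was at -0.48 after position adjustment. Kdr, Eng and Vwf were then at -0.46, -0.71 and -1.45, and of these markers only Vwf was called. Of 5 fibroblast markers, 3 were called higher, namely Col1a1 (2.49 on the log2 scale after position adjustment), Col1a2 and Lum, the latter pair being well above background on no 1G11-mock array, and the summed level of the 5 was 14.27 to 15.07 on 1G11-mock arrays and 15.16, 14.94 and 17.36 on 1G11-SOD3 replicates 1 to 3. The value on replicate 3 was set by Dcn (17.05, against 13.51 and 13.59 on replicates 1 and 2). The sums of the lines overlapped with and without that array, 1G11-SOD3 replicate 2 (14.94) standing below 1G11-mock replicate 1 (15.07). Of 5 epithelial markers, 0 were called, and neither were the leukocyte markers Ptprc, Adgre1, Cd3e and Itgam. Ptprc and Adgre1 and the epithelial markers Epcam and Krt18 were well above background on no array, whereas Krt19, Cd3e and Itgam were on all 6. The part of these marker differences in the member values was not tested.

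Fas encodes the receptor of Fas ligand. Its probe (reference transcript NM_007987, placed by the array annotation at chr19:34402164-34402223 in a build that the files do not name) was printed on 2 spots, both outside the middle. The mean of the 2 spots was 12.67, 11.80 and 12.26 on 1G11-mock replicates 1 to 3 and 10.73, 10.59 and 10.89 on 1G11-SOD3 replicates 1 to 3. Every 1G11-SOD3 array thus lay below every 1G11-mock array, and the spread was wider in 1G11-mock (12.25 ± 0.44, SD, n = 3) than in 1G11-SOD3 cells (10.74 ± 0.15, SD, n = 3). The log2 difference was -1.51 (SE 0.260, 95% CI -2.08 to -0.94, limma adjusted p = 0.00995). Of all probes, 262 had a lower difference than Fas, 234 of them called.

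Both copies of the Fas probe showed the difference. On the copy in row 8 and column 114, far from the middle, the 1G11-mock arrays read 13.17, 12.36 and 12.98 and the 1G11-SOD3 arrays 11.07, 10.93 and 10.90, a difference of -1.87. On the copy in row 235 and column 52, which lay 3 columns from the edge of the middle, they read 12.18, 11.24 and 11.55 against 10.38, 10.25 and 10.88, a difference of -1.15. The groups did not overlap on either copy. The surrounding spots differed between the lines by -0.11 at the first copy and by 0.25 at the second, and with these subtracted the copies stood at -1.76 and -1.40. The position-adjusted difference of the probe was -1.58 (95% CI -2.19 to -0.98, limma adjusted p = 0.00892). After position adjustment Fas was again the 1 member probe called, and 4.77% of all probes were called.

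**Figure D1:**
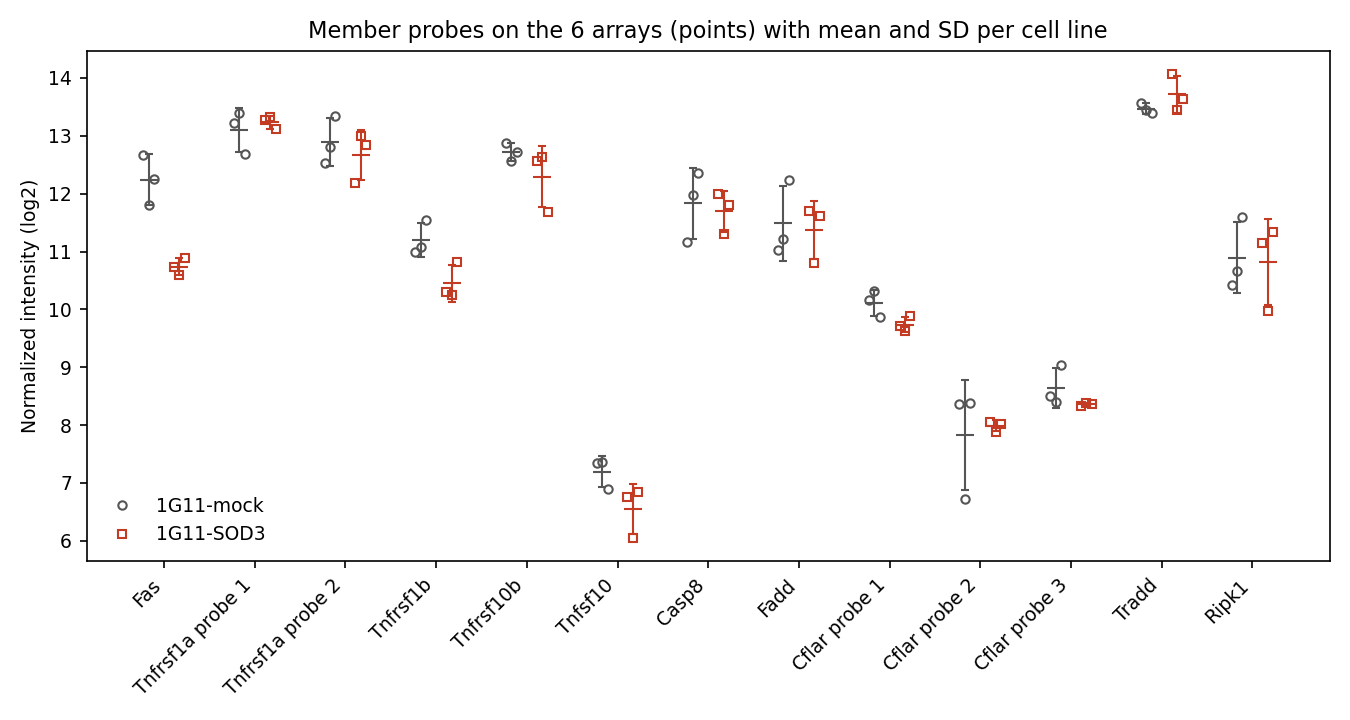
Normalized intensity (log2) of the 13 member probes on each array, circles for 1G11-mock and squares for 1G11-SOD3, with the mean (dash) and SD (bars) of 3 arrays per line. Fas reads 11.80 to 12.67 on 1G11-mock and 10.59 to 10.89 on 1G11-SOD3 arrays, the widest gap between the lines among these probes.

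The other receptors were next examined. Tnfrsf1a, which encodes TNF receptor 1, had 2 probes on the same transcript (NM_011609). The first (chr6:125312376-125312435, build not named) is among the probes printed 10 times, which gives a view of the place effect within one gene. On the 8 copies outside the middle, its mean was 13.52, 13.55 and 13.53 on 1G11-mock and 13.21, 13.32 and 13.08 on 1G11-SOD3 arrays, with an SD among copies of 0.21 to 0.45. The difference between the lines was negative on 7 of these 8 copies, with a median of -0.46 and a range of -0.55 to 0.08. At those of them without an outlier spot, the surrounding spots differed between the lines by -0.38 to -0.27. With these subtracted, the same copies stood at -0.26 to 0.15.

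On the 2 copies in the middle the picture turned. The copy in row 176 and column 92 read 11.98, 12.13 and 9.46 on 1G11-mock and 13.51, 13.31 and 13.13 on 1G11-SOD3 arrays, and the copy in row 150 and column 75 read 12.13 and 9.13 on 1G11-mock replicates 1 and 3, its spot on replicate 2 being an outlier that was left out. The differences there were 2.13 and 2.75. The mean of the middle copies minus that of the others was -4.23 on 1G11-mock replicate 3, -1.46 and -1.43 on replicates 1 and 2, and 0.01 to 0.30 on the 1G11-SOD3 arrays. In all, 4 spot values of this probe were outliers and were left out.

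Averaged over all copies, the first Tnfrsf1a probe read 13.23, 13.40 and 12.68 in 1G11-mock and 13.27, 13.32 and 13.11 in 1G11-SOD3 cells, and the groups overlapped. Its log2 difference was 0.13 (SE 0.247, 95% CI -0.41 to 0.67, limma adjusted p = 0.860). With the middle left out the sign turned, to -0.33 (SE 0.212, 95% CI -0.79 to 0.13, limma adjusted p = 0.538), and with position adjustment it was -0.04 (95% CI -0.54 to 0.45). The second probe (chr6:125311922-125311981), outside the middle, read 12.53, 12.81 and 13.34 against 12.18, 12.99 and 12.85, also overlapping, with a difference of -0.22 (SE 0.293, 95% CI -0.86 to 0.42, limma adjusted p = 0.795). No change of Tnfrsf1a was detectable by either probe.

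**Figure D2:**
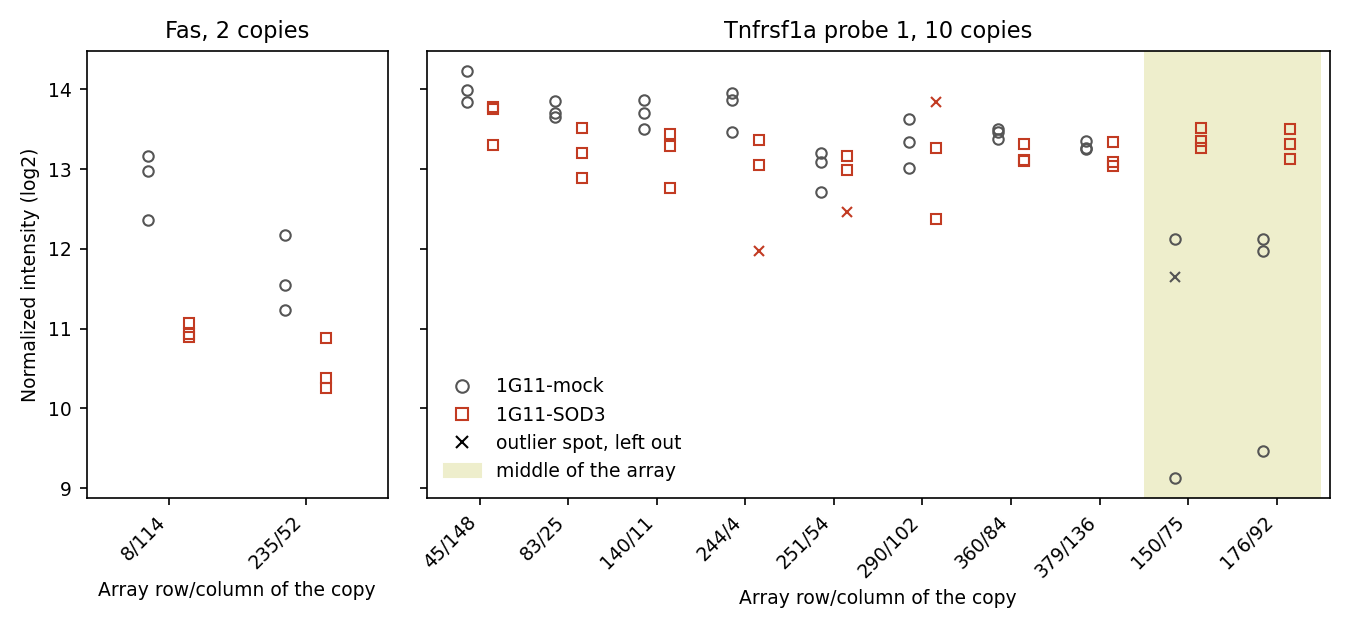
Normalized intensity (log2) of each printed copy of the Fas probe (left) and of the first Tnfrsf1a probe (right), labeled by array row and column, with one point per array, crosses for outlier spots left out and shading for the middle of the array. In the middle the 1G11-mock points of Tnfrsf1a lie at 9.13 to 12.13 and those of 1G11-SOD3 at 13.13 to 13.52.

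Tnfrsf1b encodes TNF receptor 2, which has no death domain and signals through TRAF2. Its probe (NM_011610, chr4:144802359-144802418) read 10.99, 11.08 and 11.54 in 1G11-mock and 10.30, 10.24 and 10.82 in 1G11-SOD3 cells. The groups did not overlap, as was the case for 20.7% of all probes, and 1G11-SOD3 was the lower line. The log2 difference of -0.75 (SE 0.254, 95% CI -1.31 to -0.19, limma adjusted p = 0.179) did not pass. It was -0.46 after position adjustment (95% CI -1.03 to 0.11), and the spots around it differed by -0.29.

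Tnfrsf10b encodes the mouse TRAIL receptor. Its probe (NM_020275, chr14:70184141-70184200) read 12.88, 12.57 and 12.72 in 1G11-mock and 12.56, 12.63 and 11.69 in 1G11-SOD3 cells, where replicate 3 stood below the other 5 arrays. The difference was -0.43 (SE 0.279, 95% CI -1.04 to 0.18, limma adjusted p = 0.537), and -0.16 after position adjustment. Tnfsf10, which encodes TRAIL itself, was well above background on 0 of 6 arrays (NM_009425, chr3:27238508-27238567, 7.34, 7.36 and 6.89 against 6.76, 6.05 and 6.84), and no fold change is given.

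Among the DISC genes, Fadd encodes the adaptor between FAS and caspase-8. Its probe (NM_010175, chr7:151764228-151764267) read 11.03, 11.21 and 12.23 in 1G11-mock and 11.70, 10.80 and 11.61 in 1G11-SOD3 cells, with a difference of -0.12 (SE 0.348, 95% CI -0.88 to 0.65, limma adjusted p = 0.920). Casp8, the initiator caspase (NM_009812, chr1:58901601-58901660), read 11.16, 11.98 and 12.36 against 11.99, 11.30 and 11.80, with a difference of -0.14 (SE 0.320, 95% CI -0.84 to 0.56, limma adjusted p = 0.891). For both genes the arrays of the lines were interleaved.

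Cflar, whose product resembles caspase-8 but lacks its protease activity, had 3 probes. The first, on transcript variant 1 (NM_207653, chr1:58811116-58811175), read 10.16, 10.31 and 9.87 in 1G11-mock and 9.71, 9.62 and 9.88 in 1G11-SOD3 cells, with a difference of -0.38 (SE 0.225, 95% CI -0.87 to 0.11, limma adjusted p = 0.492). The groups met at a single pair of arrays, 1G11-mock replicate 3 and 1G11-SOD3 replicate 3. The second, on the same variant (chr1:58810660-58810719), read 8.37, 6.73 and 8.38 against 8.06, 7.88 and 8.02 and was well above background on 2 1G11-mock arrays and 1 1G11-SOD3 array, with a difference of 0.16 (95% CI -0.69 to 1.01, limma adjusted p = 0.897).

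The third Cflar probe, on transcript variant 2 (NM_009805, chr1:58789994-58790053), read 8.50, 8.40 and 9.04 against 8.33, 8.38 and 8.36, with a difference of -0.29 (SE 0.239, 95% CI -0.82 to 0.23, limma adjusted p = 0.641). The lines did not overlap on this probe, but their nearest arrays stood at 8.40 and 8.38. The brighter probe of variant 1 and the probe of variant 2 thus gave negative differences and the dim probe a positive one, and 0 of the 3 passed.

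Of the genes of TNF receptor 1 signaling, Tradd, the adaptor of that receptor (NM_001033161, chr8:107782475-107782531), read 13.57, 13.44 and 13.39 in 1G11-mock and 14.07, 13.45 and 13.64 in 1G11-SOD3 cells. The difference was 0.25 (SE 0.236, 95% CI -0.27 to 0.77, limma adjusted p = 0.691), and 1G11-SOD3 replicate 1 was the brightest array. Ripk1, the kinase that joins complex I and can pass the signal on to caspase-8 or to necroptosis (NM_009068, chr13:34125152-34125211), read 10.43, 10.66 and 11.60 against 11.15, 9.97 and 11.33, with a difference of -0.08 (SE 0.390, 95% CI -0.94 to 0.78, limma adjusted p = 0.954).

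Ripk1 and Fadd shared the order of their extreme arrays, 1G11-mock replicate 3 being highest and 1G11-SOD3 replicate 2 lowest for both. Their spots lay near each other, in rows 338 and 344 and columns 69 and 55. With position adjustment the SE of Ripk1 went from 0.390 to 0.268 and that of Fadd from 0.348 to 0.238, and the differences were 0.03 and 0.01. The precision of the test set what could be seen. For the 10 probes that were well above background on all arrays and did not pass, the differences ran from -0.75 to 0.25. Of their 95% intervals, 8 lay within a 2-fold change in either direction, and the other 2, those of Tnfrsf1b and Tnfrsf10b, reached past a 2-fold fall.

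**Figure D3:**
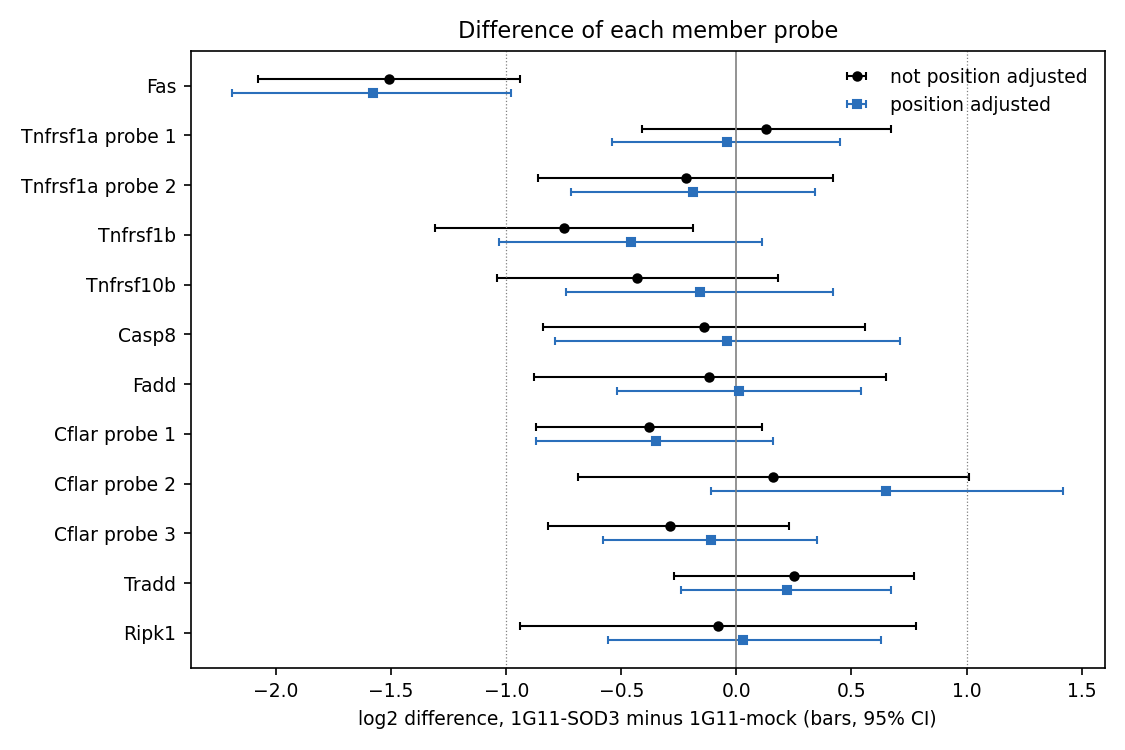
Difference (log2, 1G11-SOD3 minus 1G11-mock) of the 12 member probes that were above background on at least 1 array, with 95% CI, without (black) and with (blue) position adjustment, and dotted lines at 2-fold. The interval of Fas lies below 0 in both, at -2.08 to -0.94 and -2.19 to -0.98, and the Tnfrsf1b interval reaches 0 only with adjustment.

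The rest of the pathway was taken from a list of 59 further genes, each by its brightest probe. Of these, 5 were called higher, 1 was called lower and 53 did not pass, where 3.02% of all genes were called higher and 1.75% lower by their brightest probe. The median difference was -0.06. Of the 5 higher genes, 4 had their probe in the middle of the array. With position adjustment 2 genes were called higher and 2 lower, beside 5.34% of all genes in either direction. With the middle left out, 47 of the 59 genes kept a value and 1 was called in each direction. The 4 called genes of the middle had no value there. With the replicate number as a block, 10 were called higher and 1 lower, and without 1G11-SOD3 replicate 3 the count fell from 6 to 3. The calls over all probes moved as well. Of 55681 probes, 1629 were called in the main fit, 2252 with the block and 848 without that array. With the middle left out, 842 of 49526 probes were called.

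The called genes outside the middle were Tnfaip3 and Tnfrsf11b. Tnfaip3, which encodes A20, an enzyme that edits ubiquitin on RIPK1 and restrains NF-κB, read 11.93, 11.12 and 12.16 in 1G11-mock and 9.79, 9.25 and 9.31 in 1G11-SOD3 cells. The groups were far apart, with a difference of -2.29 (SE 0.297, limma adjusted p = 0.00230) and of -2.09 after position adjustment. Tnfrsf11b, which encodes osteoprotegerin, a soluble decoy receptor that binds TRAIL and RANKL, read 8.40, 7.91 and 8.08 against 9.37, 9.35 and 9.77, so that every 1G11-SOD3 array was above every 1G11-mock array. Its difference was 1.36 (SE 0.238, limma adjusted p = 0.0108), with 1.52 after position adjustment, and 1 of the 1G11-mock arrays showed its probe well above background. It did not pass without 1G11-mock replicate 2 or without 1G11-SOD3 replicate 3.

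The called genes in the middle were Pea15a, Faim2, Birc2 and Casp6. Pea15a encodes a death effector domain protein that binds FADD and caspase-8. It read 10.77, 10.86 and 8.48 in 1G11-mock and 12.71, 12.75 and 12.35 in 1G11-SOD3 cells (difference 2.57, limma adjusted p = 0.0214), and 1.29 was left after position adjustment (limma adjusted p = 0.0400). Faim2, which encodes an inhibitor of FAS-induced death, read 7.62 to 8.37 against 9.53 to 9.80 (difference 1.66, limma adjusted p = 0.00476), with 0.95 after adjustment, and was well above background on 1 1G11-mock array. In these 2 genes 1G11-mock replicate 3 was the lowest array, as it was for the middle copies of Tnfrsf1a.

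Birc2, which encodes the ubiquitin ligase cIAP1 of complex I, was well above background on no 1G11-mock array (8.08, 7.01 and 7.13) and on all 1G11-SOD3 arrays (9.98, 9.28 and 10.47). Before position adjustment its signal was at least 3.47-fold higher on 1G11-SOD3 arrays. For this bound the dim line was set for each array at the higher of its own signal and the lowest signal well above background. The log2 difference of the fit was 2.50 (limma adjusted p = 0.00349), but -0.12 was left after position adjustment. Casp6, an executioner caspase, read 11.16, 11.26 and 10.59 against 12.20, 11.93 and 12.10 (difference 1.07, limma adjusted p = 0.0404), with 0.41 after adjustment. Of the 4 genes, only Pea15a passed the thresholds with position adjustment. The adjustment did not take away all of the difference in the middle. The middle copy of Tnfrsf1a without an outlier spot kept 0.44 after the surrounding spots were subtracted. Copies elsewhere without an outlier spot stood at -0.26 to 0.15. The other middle copy kept 0.99, but its surroundings were averaged over all arrays and its own values without the outlier. Casp6 did not pass when any 1 array was left out or with an offset of 16, and Pea15a did not pass when any 1 of the 1G11-SOD3 arrays was left out.

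By role, the counts were uneven in what the arrays could measure. Of 6 ligands, 5 (Tnf, Fasl, Lta, Ltb and Tnfsf15) were well above background on no array, as was Tnfsf10. The sixth, Tnfsf12, which encodes TWEAK, did not pass by its brightest probe (-0.28, limma adjusted p = 0.643), but a second probe of the same transcript, looked at after its values were seen, was called lower (11.71 to 12.21 against 10.60 to 10.82, difference -1.22, limma adjusted p = 0.0157) and was at -0.93 after position adjustment (limma adjusted p = 0.0556). Of 9 other receptors, 1 was called higher (Tnfrsf11b) and 0 lower. Of 11 adaptors and DISC regulators, 2 were called higher (Pea15a and Faim2) and 0 lower. Of 19 genes of complex I and its ubiquitin machinery, 1 was called higher (Birc2) and 1 lower (Tnfaip3), with 13 negative differences and a median of -0.37, the lowest of these lists. In this list 4 probes lay in the middle, and the median after position adjustment was -0.27. A shift of the list as a whole was not tested. Of 8 effectors, 1 was called higher (Casp6) and 0 lower, and with position adjustment 0 were called higher and 1 lower. The latter was Bid, which encodes the link from caspase-8 to mitochondria and is named here after its values were seen (difference -0.92, limma adjusted p = 0.0913, position adjusted -1.03, limma adjusted p = 0.0366). Of 3 genes of necroptosis and 3 of receptor shedding, 0 were called. Well above background on no array were Ripk3, the kinase downstream of RIPK1 in necroptosis, Zbp1 of the same list, and Adam17 of the shedding list.

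**Figure D4:**
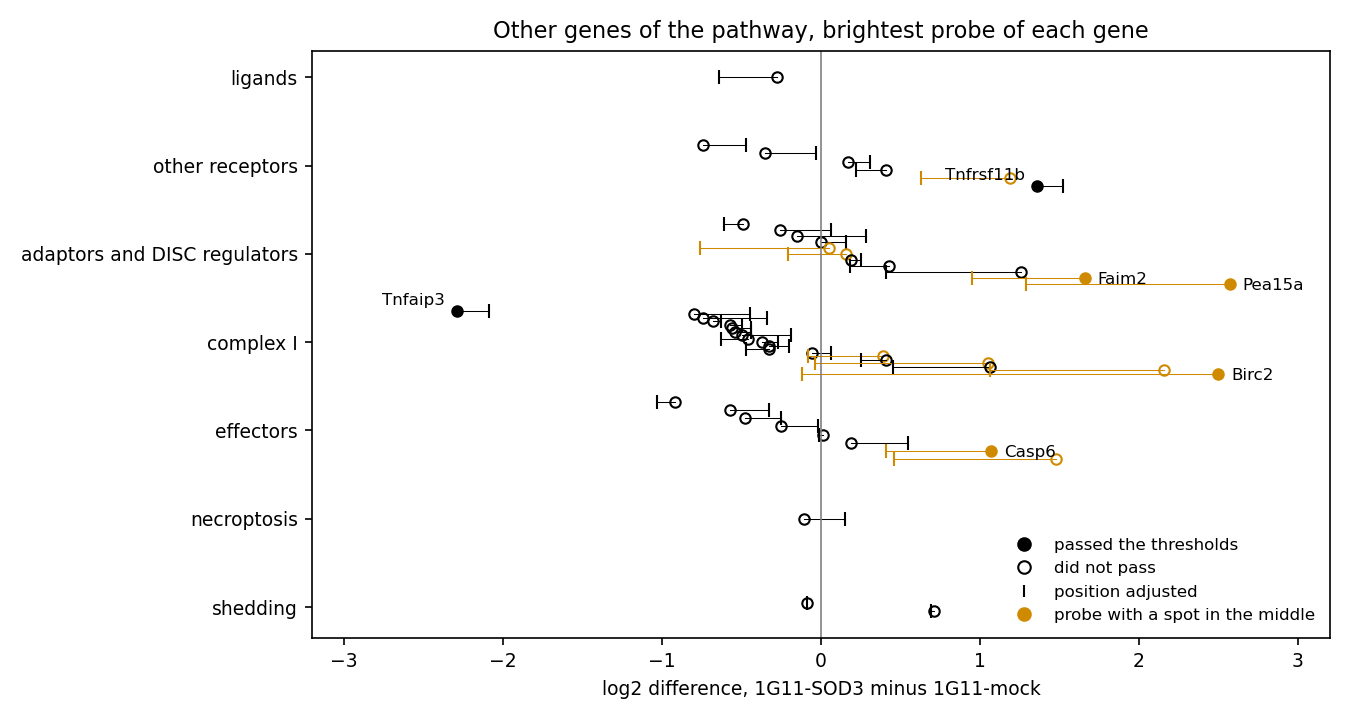
Difference (log2, 1G11-SOD3 minus 1G11-mock) of the 48 further pathway genes above background on at least 1 array, by role, filled where the thresholds were passed and orange where the probe has a spot in the middle, with a line to the position-adjusted value (tick). Birc2 moves from 2.50 to -0.12 on adjustment, while Tnfaip3 moves from -2.29 to -2.09 and Tnfrsf11b from 1.36 to 1.52.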

How the data were processed

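For each of 6 arrays the authors deposited the output of Feature Extraction 10.7.3.1, with unnormalized intensity of each spot and its local background, and log2 values that had been background corrected and quantile normalized (limma is the tool named in the submitters' processing notes). Here mean spot intensities were corrected with normexp (offset of 50, local background median), control spots removed, and the log2 values quantile normalized (limma 3.58.1, R 4.3.3). Outlier spots were left out and copies of a probe averaged. Lines were compared by limma with Benjamini-Hochberg adjustment over 55681 probes. With 3 arrays per line an exact permutation test cannot go below p = 0.1 (2-sided). Simulated data with 200 changed probes were used to test the fit.

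Position adjustment subtracted from each array a kernel surface of the deviations of surrounding spots. Among 3 widths, the one with the smallest spread among copies of the probes printed 10 times was used (SD of the difference between the lines 0.218, against 0.701 without). The series' design gives 3 biological replicates per line. Same-numbered arrays deviated together (correlations of 0.165, 0.103 and 0.157 over 16279 probes), so the numbers, taken from the titles, were also used as a block. The members and gene lists were chosen with earlier results of these data known. Named were all member probes, Sod3, the further pathway genes called by their brightest probe, and cell type markers in part, of which 1 is not reported here. The alternatives were no background correction, an offset of 16, scaling to the 75th percentile, the processed signal, dim probes left out, outlier spots kept, the deposited table, both ways of handling place, the replicate block and each array left out in turn. Probe positions are those of the array annotation and were not set against GRCm38.p6 gene models. Probe sequences were not printed. No column of per-sample values was left unmapped. Python 3.11.15 drew the figures.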

Additional observations from a re-analysis of the deposited data

How the results depend on the processing

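Fas passed the thresholds under all 16 alternatives, with a log2 difference of -1.71 to -1.36 with all arrays and of -1.74 to -1.30 with any 1 array left out (highest adjusted p 0.0440). The number of member probes called was 1 under 15 alternatives and 2 with scaling to the 75th percentile, where Tnfsf10, which was above background on no array, was added. That scaling moved the median of all probes to -0.33, and the processed signal moved it to -0.52. The share of called probes that were higher was 63.8%, 10.8% with the processed signal, 35.5% with the middle left out and 27.7% with position adjustment.

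The number of further pathway genes called was 6. It was 11 with scaling to the 75th percentile, 10 with the processed signal (4 higher, 6 lower) and 11 with the replicate block. Of all 55681 probes, 1629 were called in the main fit. With the same alternatives, in that order, 2598, 11118 (1200 higher, 9918 lower) and 2252 were called. With 1 array left out, 3 to 7 of the pathway genes were called, beside 775 to 1797 of all probes. With the middle left out, 2 of the 47 genes that kept a value were called, beside 842 of 49526 probes. Sod3 ranged from 3.17 to 5.06 with 1 array left out, missed the threshold without 1G11-SOD3 replicate 3 at 4.32 (adjusted p 0.0511), and has no value without the middle. The replicate block changed no member call, with Tnfrsf1b at -0.75 (adjusted p 0.0938).

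Signs turned for members that did not pass. With scaling to the 75th percentile Casp8 was at 0.03, Fadd at 0.04, Ripk1 at 0.03 and the second Cflar probe at -0.13. With the processed signal the second Tnfrsf1a probe was at 0.02, Tnfrsf10b at 0.02, Casp8 at 0.17 and Fadd at 0.15. The first Tnfrsf1a probe was at -0.33 with the middle left out and at -0.04 with position adjustment, where Fadd was at 0.01 and Ripk1 at 0.03. With 1 array left out, Casp8 ranged from -0.48 to 0.12, Fadd from -0.34 to 0.25, Ripk1 from -0.33 to 0.34, the first Tnfrsf1a probe from -0.08 to 0.28, the second from -0.40 to 0.03 and the second Cflar probe from -0.40 to 0.45. Apart from the place settings for the first Tnfrsf1a probe, the cause was not tested. Signal over background limits Tnfsf10, the second Cflar probe and most ligands.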
